A study of Homo sapiens with 15 samples.

Results

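The angiogenic factors described here are 10 genes, namely the VEGF family ligands VEGFA, VEGFB, VEGFC and PGF, the angiopoietin ANGPT1, the angiopoietin-like proteins ANGPTL2 and ANGPTL4, the peptide hormone precursor ADM, the VEGF receptor FLT1 and the co-receptor NRP1. They were taken from the deposited tables by gene symbol and were found as 10 of the 16382 genes listed for MRC5 fibroblasts and 9 of the 16076 genes listed for H196 tumor cells. FLT1 was not analysed in H196 cells here. RNA-seq compared fibroblasts and small cell lung cancer (SCLC) cells grown apart or together, with 15 libraries in 5 groups of 3. MRC5, a human lung fibroblast line, was mono-cultured (MRC5_Mo), co-cultured with the neuroendocrine (NE) SCLC line H69 (MRC5_coH69) or co-cultured with the non-NE SCLC line H196 (MRC5_coH196). H196 cells were mono-cultured (H196_Mo) or co-cultured with MRC5 (H196_Co), each for a week, with the partner behind a porous transwell membrane. No H69 library was analysed here.

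VEGF ligands are secreted proteins that bind tyrosine kinase receptors, mainly on endothelial cells, and drive the growth, survival and permeability of blood vessels (VEGFA, PGF, VEGFB) or lymphatic vessels (VEGFC). NRP1 lacks kinase activity and presents VEGF to these receptors, whereas FLT1 binds VEGFA, VEGFB and PGF and, in its soluble splice form, can sequester them. ANGPT1 activates the endothelial receptor TEK, ADM relaxes vessels and stabilises the endothelial barrier, and VEGFA, ANGPTL4 and ADM are well-known target genes of hypoxia-inducible factors (HIF). Fibroblasts are a known source of such ligands in tumors.

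Each line is a lone model of its cell type. MRC5 was routinely grown in MEM and the SCLC lines in RPMI medium, and the medium of the co-cultures was not given in the sources used here, so a change of medium and the presence of a partner cannot be told apart. Library totals ranged from 16073597 to 19170560 expected counts (reads assigned to genes by an estimate that can split a read). All 12 fibroblast markers had a mean of at least 1 FPKM (fragments per kilobase of gene, scaled to library size, the scale of all levels below) in every MRC5 group. NE markers, among them CHGB, summed to 0.33 to 0.78 FPKM in MRC5 libraries and to 31.1 to 33.0 FPKM in H196 libraries, where CHGB had 17.49 to 19.97 FPKM although H196 is described as non-NE. Endothelial markers summed to 8.48 to 12.0 FPKM in MRC5 libraries, mostly TEK, with CDH5 and ERG at 0 in all MRC5_Mo libraries. Epithelial markers, mostly KRT18, summed to 108 to 147 FPKM in MRC5 and to 180 to 234 FPKM in H196 libraries, with CDH1 at 0 in both mono-cultures. Replicates are described as parallel and nothing says that they were separate cultures, so p-values measure the spread between these libraries, which may be technical. Because these are bulk samples, fewer cells of a type and less RNA per cell cannot be told apart.

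In mono-culture the fibroblasts expressed most of these genes, and in a different order from the tumor cells. ADM had the highest level in MRC5_Mo, at 110 ± 4.42 FPKM (SD, n = 3), followed by NRP1 at 41.8 ± 0.356, VEGFC at 37.6 ± 2.42, ANGPTL2 at 35.1 ± 3.72, VEGFA at 21.8 ± 1.32 and VEGFB at 18.9 ± 0.551. ANGPT1, ANGPTL4, FLT1 and PGF followed at 11.7 ± 0.662, 8.26 ± 0.873, 4.45 ± 0.498 and 0.51 ± 0.106 FPKM. Among neighbours in this order, the libraries of VEGFC and ANGPTL2 overlapped and the others did not. In H196_Mo the order was led by ANGPTL4 at 32.9 ± 2.06 FPKM and ADM at 23.9 ± 0.317, ahead of VEGFB at 17.8 ± 1.86 and VEGFA at 16.3 ± 0.435, which overlapped. VEGFC, ANGPT1, PGF and NRP1 were at 5.31 ± 0.377, 4.31 ± 0.431, 2.98 ± 0.153 and 0.597 ± 0.0551 FPKM. ANGPTL2 had 0 counts in all 3 H196_Mo libraries, where 3 counts would correspond to an upper limit of 0.173 to 0.187 CPM (counts scaled to library size), counting error only.

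The lines were compared by edgeR's quasi-likelihood test on the counts of all 15 libraries, and a gene was called when its p, adjusted over all genes by the method of Benjamini and Hochberg, was under 0.05 and its log2 fold change (log2FC) exceeded 0.58 in either direction. VEGFA, VEGFC, ANGPT1, ADM and NRP1 were called higher and PGF and ANGPTL4 lower in MRC5_Mo than in H196_Mo, 7 of the 8 members that could be fitted, and 61.7% of all 13585 tested genes were called in either direction (30.2% higher, 31.5% lower). Among the 8 members fitted, the difference was widest for NRP1, with a log2FC of 6.62 ± 0.078 (SE, adjusted p = 8.83e-32), and VEGFC, with 3.27 ± 0.073 (adjusted p = 1.98e-25). ANGPTL2 was at least 702-fold higher in MRC5_Mo than in H196_Mo, with 3 counts per library taken as the floor. PGF was 4.35-fold lower and ANGPTL4 2.93-fold lower in the fibroblasts. VEGFB differed by 0.52 on the log2 scale, below the limit. On the log2(FPKM + 1) scale the VEGFA difference was 0.39 and below the limit, and the share of called genes that were higher was 31.7% instead of 48.9% on counts, the median of all genes being -0.34. Origin and medium of the lines cannot be told apart in this comparison.

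**Figure D1:**
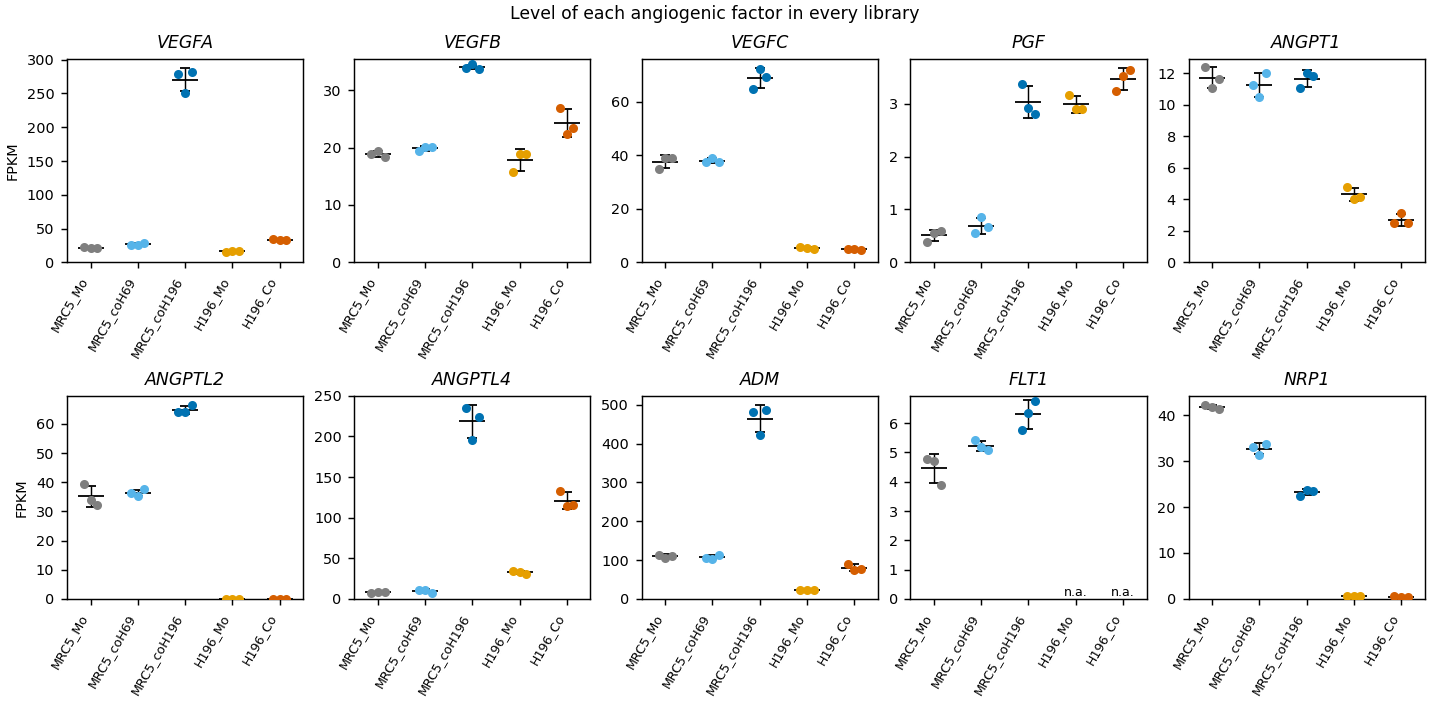
FPKM of each of the 10 genes (linear axes from 0, a separate scale per panel) in every library of the 5 groups, with points for libraries, horizontal bars for group means and error bars of 1 SD (n = 3), and n.a. for FLT1 in H196 cells, which was not analysed. VEGFA, ANGPTL4 and ADM stand far above the other groups in MRC5_coH196, ANGPT1 does not, and NRP1 steps down from MRC5_Mo over MRC5_coH69 to MRC5_coH196.

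The co-culture with H196 addressed what a non-NE tumor cell does to the fibroblast. All 4 VEGF family ligands rose in MRC5_coH196, VEGFA most strongly, and were among 8 of 10 members called higher, beside 17.2% of all genes. VEGFA (gene ID 7422, chr6:43770209-43786487 in GRCh38.p13), the main vascular growth factor, had 23.24, 21.56 and 20.63 FPKM in MRC5_Mo and 278.56, 250.46 and 281.52 FPKM in MRC5_coH196. Every co-cultured library lay far above every mono-cultured library. The log2 fold change on the count scale was 3.84 ± 0.061, or 14.3-fold (adjusted p = 2.68e-25), the 53rd largest rise among 12819 genes.

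PGF (5228, chr14:74941830-74968186), the placental growth factor that binds FLT1, was barely detected in MRC5_Mo at 0.39, 0.55 and 0.59 FPKM, from 11 to 17 counts. It reached 3.37, 2.91 and 2.80 FPKM in MRC5_coH196, from 80 to 98 counts, a log2FC of 2.74 ± 0.21 (adjusted p = 1.56e-11). The groups were well apart, although the level stayed the lowest of the 10 genes. VEGFB (7423, chr11:64234584-64239264), a FLT1 ligand, went from 18.80, 19.49 and 18.40 FPKM to 33.95, 34.48 and 33.74 FPKM. VEGFC (7424, chr4:176683538-176796313), the lymphatic growth factor, went from 34.81, 38.89 and 39.12 FPKM to 64.80, 72.34 and 69.14 FPKM. The groups did not overlap, and the log2 fold changes were 1.03 ± 0.052 for VEGFB, or 2.04-fold (adjusted p = 4.80e-15), and 1.04 ± 0.050 for VEGFC, or 2.06-fold (adjusted p = 1.75e-15).

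ANGPTL4 (51129, chr19:8363033-8374373), a secreted inhibitor of lipoprotein lipase that also acts on vessels, changed most of the 10 genes. It had 7.27, 8.61 and 8.91 FPKM in MRC5_Mo and 234.94, 195.91 and 224.43 FPKM in MRC5_coH196. The log2 fold change was 4.90 ± 0.094, or 30.0-fold (adjusted p = 1.47e-23), and ranked 27th among all genes tested. ADM (133, chr11:10305073-10307397) was already abundant at 113.66, 105.17 and 111.56 FPKM and reached 481.43, 423.27 and 487.50 FPKM. That is a log2FC of 2.25 ± 0.056, or 4.75-fold (adjusted p = 3.11e-21), and ADM remained the highest of the 10 genes. ANGPTL2 (23452, chr9:127057352-127122684), a secreted glycoprotein linked to inflammation and vessel growth, went from 39.25, 34.04 and 32.05 FPKM to 63.94, 64.09 and 66.35 FPKM, a log2FC of 1.17 ± 0.054 (adjusted p = 7.98e-16).

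ANGPT1 (284, chromosome 8) stood apart from the other ligands. It had 12.39, 11.07 and 11.64 FPKM in MRC5_Mo and 11.05, 12.04 and 11.85 FPKM in MRC5_coH196, levels that overlap on this scale. On the count scale it passed the test at a log2FC of 0.17 ± 0.057 (adjusted p = 0.0118), below the limit, and on the log2(FPKM + 1) scale the difference was -0.0056 (adjusted p = 0.938 by limma). Without MRC5_Mo replicate 2 the adjusted p by edgeR was 0.0853.

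The receptors moved in opposite directions. FLT1 (2321, chr13:28298028-28495128) had 4.78, 4.70 and 3.88 FPKM in MRC5_Mo and 5.78, 6.36 and 6.76 FPKM in MRC5_coH196, a log2FC of 0.75 ± 0.070 (adjusted p = 5.99e-10) that was 0.42 and under the limit on the log2(FPKM + 1) scale. NRP1 (8829, chr10:33176192-33334667) fell from 42.11, 41.81 and 41.40 FPKM to 22.49, 23.67 and 23.50 FPKM. The change of NRP1 was -0.81 ± 0.042, or 1.75-fold lower (adjusted p = 6.85e-15), and the groups were far apart. These are values per gene, so soluble and membrane-bound FLT1, and the splice forms of VEGFA, cannot be told apart. Exons of VEGFA and NRP1 share 188 and 561 bases with antisense genes in GENCODE v29, and reads from both strands cannot be told apart where counting ignores strand, which was not stated.

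Of the 10 genes, 8 were called higher and 1 lower in MRC5_coH196 than in MRC5_Mo, beside 17.2% and 14.7% of all 12819 genes tested, or 31.9% in either direction. Their median log2 fold change was 1.10 and that of all genes was -0.0030. The levels did not overlap between the groups for 10 of 10 members on the CPM scale, beside 75.5% of all genes. On the log2(FPKM + 1) scale 7 members were called higher, the median of all genes was -0.13, and 30.5% of the called genes were higher instead of 53.9%.

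Measures that moved with these changes are given here, and their part in them was not tested. All 12 hypoxia reporters outside angiogenesis were called higher in MRC5_coH196, with a median log2 fold change of 2.70, led by CA9, a carbonic anhydrase, at 7.06, ANKRD37 at 5.02 and NDRG1 at 4.93. Among 10 genes for HIF subunits and oxygen sensors, 3 were called higher, EGLN3, HIF3A and EGLN1, at 6.07, 3.81 and 1.66, and 0 lower. Over all genes 17.2% were called higher and 14.7% lower. HIF1A, a subunit degraded when oxygen is present, rose by 0.39, under the limit, and EPAS1 differed by 0.0056 (adjusted p = 0.920). The 12 fibroblast markers summed to 3567 to 3731 FPKM in MRC5_coH196 and to 6036 to 6693 FPKM in MRC5_Mo, COL1A1 and COL3A1 being called lower at log2 fold changes of -1.57 and -2.09 and PDGFRB higher at 0.67. The sum is dominated by collagens, COL1A1 going from 2628 to 785 FPKM and COL1A2 from 1974 to 1191 FPKM. By the adjusted p alone 7 of the 12 were higher and 4 lower, beside 4765 and 4757 of all 12819 genes. The median log2 fold change of the 12 was 0.15. Of 5 tested epithelial markers, KRT7, KRT19 and KRT8 were called higher in MRC5_coH196, at log2 fold changes of 1.43, 0.99 and 0.83, beside 17.2% of all genes. KRT18, the most abundant of them, fell from 75.8 FPKM in MRC5_Mo to 56.6 FPKM in MRC5_coH196. Its log2 fold change was -0.25 (adjusted p = 0.000643 by edgeR), under the limit, and CLDN4 did not pass the test (0.26). The whole list of 8 summed to 112.5 to 119.2 FPKM in MRC5_coH196 and to 108.4 to 115.8 FPKM in MRC5_Mo. In MRC5_coH69 0 of the 5 were called by edgeR and 2 passed the test below the limit, beside 0.554% called and 6.7% passing of all genes. The NE marker CHGB, at 17.49 to 19.20 FPKM in H196_Co, was at 0.07 to 0.12 FPKM in MRC5_coH196 and at 0.05 to 0.15 FPKM in MRC5_Mo, ranges that overlap. The lowest MRC5_coH196 library exceeded the highest H196_Co library for VEGFA (250.46 and 34.93 FPKM), ANGPTL4 (195.91 and 132.75 FPKM) and ADM (423.27 and 90.96 FPKM).

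**Figure D2:**
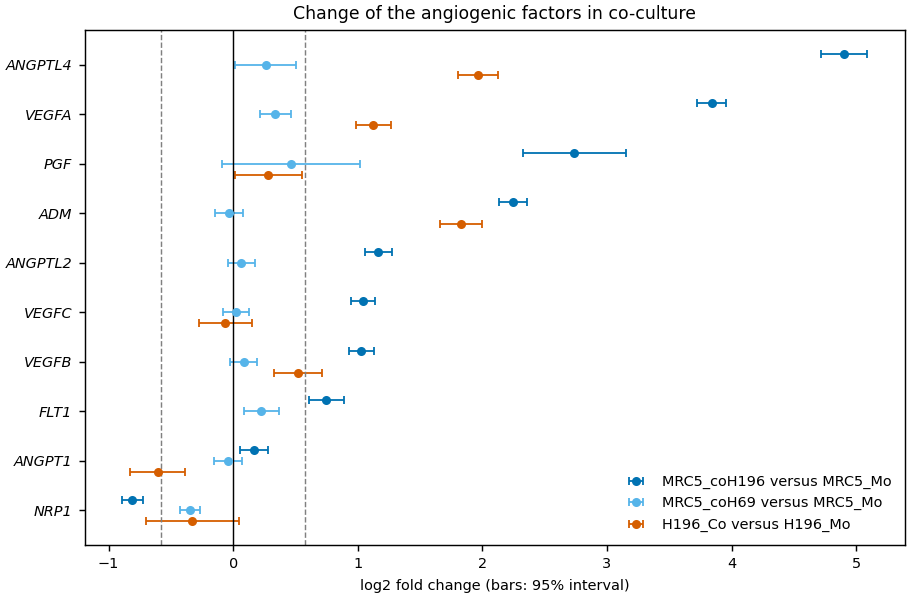
Log2 fold change of each of the 10 genes on the count scale in MRC5_coH196 and MRC5_coH69 against MRC5_Mo and in H196_Co against H196_Mo, with error bars of 95% intervals (1.96 standard errors) and dashed lines at the limit of 0.58 in either direction. In MRC5_coH196 the changes run from -0.81 for NRP1 to 4.90 for ANGPTL4, while all those of MRC5_coH69 lie inside the limit.

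Because ADM and ANGPTL4, like VEGFA, were called higher in both lines, the 250 bases before a transcript start were read from RefSeq (GRCh38.p14). This was done for 7 of the 10 genes (8 windows, PGF having 2). No window of VEGFA, NRP1 or ANGPT1 was examined here, so the counts below say nothing about these genes. Each window precedes 1 RefSeq start. Those of ANGPTL4, VEGFC and PGF lie inside the span of the gene given here, so another start lies upstream of them, and that of ANGPTL2 lies there in part. The windows of ADM and ANGPTL2 fall in an exon of another transcript in GENCODE v29 and are not shown. That of ANGPTL4, the gene that changed most, is shown 5′ to 3′ in the direction of the gene. Capitals mark the HIF core letters ACGTG or GCGTG, searched on both strands, so that a match on the opposite strand reads CACGT or CACGC.
ANGPTL4 chr19:8363905-8364154, plus strand: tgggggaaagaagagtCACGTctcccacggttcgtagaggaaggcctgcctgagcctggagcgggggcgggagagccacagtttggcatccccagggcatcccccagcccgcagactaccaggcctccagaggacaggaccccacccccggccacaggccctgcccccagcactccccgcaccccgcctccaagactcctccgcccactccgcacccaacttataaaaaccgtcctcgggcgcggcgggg
The match began 234 bases before that start in ANGPTL4 and 101 bases before the RefSeq start in ADM, and the ANGPTL2 window held none. A match was present in 6 of the 8 windows and in 43.2% of all 35116 windows of this length. The 6 belong to VEGFB, VEGFC, PGF, ANGPTL4, ADM and FLT1, and the other PGF window held none. The windows of these genes held 68.0% to 82.8% G and C, the median of all windows being 58%. CACGTG, the E-box, which contains ACGTG, was present in 6.34% of all windows and in 0 of the 8. Sites farther away and other starts were not examined, and a match is a description of letters, not a site.

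The mixture of VEGF ligands differed along with the total, which is given as a description without a test. VEGFA made up 27.7% ± 2.1 of the summed FPKM of VEGFA, VEGFB, VEGFC and PGF in MRC5_Mo, 31.6% ± 1.60 in MRC5_coH69 and 71.8% ± 1.98 in MRC5_coH196 (SD, n = 3). VEGFC was the leading ligand in MRC5_Mo with 47.7% ± 2.37 and held 18.3% ± 1.58 in MRC5_coH196. The sum of the 4 ligands was 78.8 ± 1.63, 85.6 ± 2.08 and 376 ± 14.1 FPKM. In H196 cells VEGFA held 38.5% ± 0.676 in mono-culture and 51.1% ± 1.07 in co-culture, and the sum was 42.4 ± 1.85 and 66.4 ± 3.18 FPKM. The ratio of VEGFA to its co-receptor NRP1 in MRC5 was 0.522 ± 0.0273 in MRC5_Mo, 0.827 ± 0.0420 in MRC5_coH69 and 11.6 ± 0.947 in MRC5_coH196, with no overlap between any of the 3 groups.

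**Figure D3:**
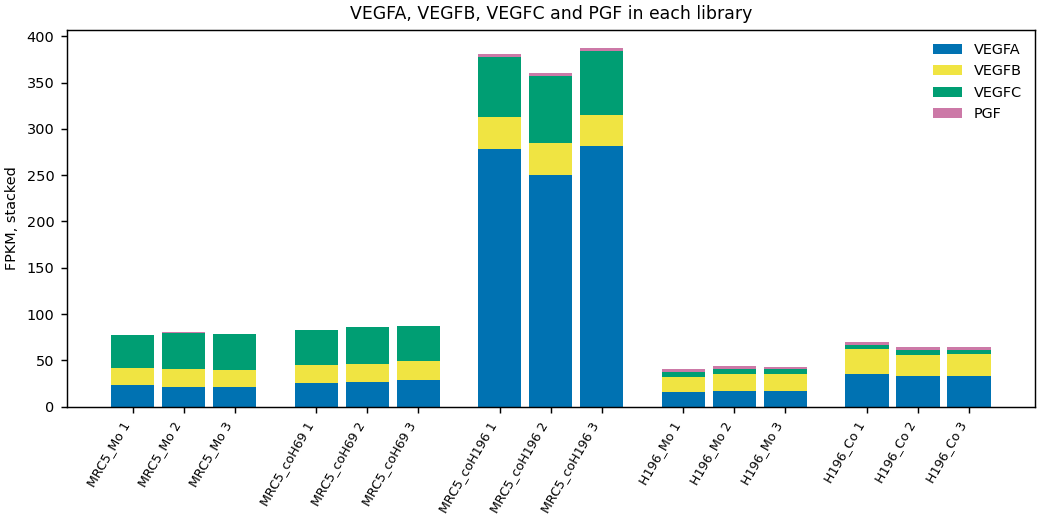
Stacked FPKM of VEGFA, VEGFB, VEGFC and PGF (linear axis from 0) in each of the 15 libraries. VEGFA fills 71.8% of the column on average in MRC5_coH196, where the columns reach 360 to 387 FPKM, and 27.7% in MRC5_Mo.

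With the NE line H69 as the partner, none of the 10 genes was called by edgeR in MRC5_coH69 against the same MRC5_Mo libraries, beside 0.554% of all genes. By the adjusted p alone VEGFA rose and NRP1 fell, 2 of 10 beside 6.7% of all genes, and 4 of 10 had an unadjusted p under 0.05, with ANGPTL4 and FLT1 beside them, where 20.1% of all genes did. VEGFA had 25.87, 26.14 and 29.11 FPKM, all above the MRC5_Mo libraries, with a log2FC of 0.34 ± 0.062 (adjusted p = 0.000974). NRP1 had 33.07, 31.34 and 33.64 FPKM, all below MRC5_Mo, with -0.35 ± 0.041 (adjusted p = 2.69e-06). FLT1 differed by 0.23 (adjusted p = 0.0598) and ANGPTL4 by 0.26 (adjusted p = 0.247), and without MRC5_coH69 replicate 3, which had the lowest ANGPTL4 of its group at 7.60 FPKM, their adjusted p was 0.0450 and 0.0435. For ADM, at 105.22, 103.13 and 113.85 FPKM, the 95% interval of the log2 fold change ran from -0.14 to 0.082, and for VEGFC from -0.078 to 0.13. PGF had a wide interval, from -0.094 to 1.02, at 16 to 24 counts. On the CPM scale levels did not overlap for 4 members (VEGFA, VEGFB, FLT1 and NRP1), beside 25.7% of all genes. No hypoxia reporter was called, and 6 of 12 passed the test as higher. DESeq2 also called 0 members.

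Tested directly, all ligands other than ANGPT1 were higher in MRC5_coH196 than in MRC5_coH69. These 7 members were called higher and 0 were called lower by edgeR and by DESeq2, beside 15.2% and 13.1% of all genes, and 28.2% in either direction. The log2 fold changes were 4.65 ± 0.092 for ANGPTL4, 3.50 ± 0.060 for VEGFA, 2.28 ± 0.057 for ADM, 2.28 ± 0.20 for PGF, 1.10 ± 0.054 for ANGPTL2, 1.02 ± 0.050 for VEGFC and 0.94 ± 0.052 for VEGFB, with adjusted p from 1.27e-24 to 1.81e-10. FLT1 rose by 0.52 ± 0.068 and ANGPT1 by 0.21 ± 0.058, both under the limit, and ANGPT1 did not pass on the log2(FPKM + 1) scale (0.045). NRP1 fell by 0.46 on the log2 scale (SE 0.042, adjusted p = 5.17e-10), also under the limit. On the CPM scale levels did not overlap for 10 of 10 members, beside 73.1% of all genes. Of the called genes 53.7% were higher, and 32.0% on the log2(FPKM + 1) scale.

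In the tumor cells the question was what the fibroblasts do to H196. ANGPTL4, ADM and VEGFA rose in H196_Co and ANGPT1 fell, while VEGFC, PGF and NRP1 did not pass the test. ANGPTL4 went from 34.92, 32.94 and 30.81 FPKM to 132.75, 114.07 and 115.84 FPKM. The log2 fold change was 1.97 ± 0.081, or 3.91-fold (adjusted p = 5.66e-13), the 9th largest rise among 12806 genes. ADM went from 24.24, 23.99 and 23.61 FPKM to 90.96, 73.42 and 77.23 FPKM, with 1.83 ± 0.087, or 3.55-fold (adjusted p = 5.77e-12), the 13th largest rise. Both genes were thus near the top of the whole table, with wide gaps between the groups.

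VEGFA in H196 went from 15.85, 16.68 and 16.49 FPKM to 34.93, 33.47 and 33.18 FPKM, a log2FC of 1.12 ± 0.071, or 2.18-fold (adjusted p = 6.17e-10). VEGFB had 15.67, 18.89 and 18.88 FPKM in H196_Mo and 26.98, 22.33 and 23.34 FPKM in H196_Co. Its log2 fold change of 0.52 ± 0.098 (adjusted p = 0.000895) lay below the limit, and without H196_Co replicate 2 it was 0.582 and was called. ANGPT1 fell from 4.80, 3.99 and 4.14 FPKM to 2.51, 3.11 and 2.47 FPKM. The groups did not overlap, and the change was -0.61 ± 0.11, or 1.52-fold lower (adjusted p = 0.000849). This is close to the limit, and without H196_Mo replicate 1, H196_Co replicate 1 or H196_Co replicate 3 ANGPT1 was no longer called (its log2 fold change was -0.71 to -0.53 over the libraries left out).

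PGF differed by 0.28 ± 0.14 (adjusted p = 0.157), VEGFC by -0.062 ± 0.11 (adjusted p = 0.723) and NRP1, at 0.45 to 0.65 FPKM, by -0.33 ± 0.19 (adjusted p = 0.232). The 95% interval of VEGFC ran from -0.27 to 0.15 and that of NRP1 from -0.70 to 0.043. ANGPTL2 had 1 count in 1 of the 3 H196_Co libraries and 0 in the others, so no change could be measured at this depth. Of the 8 members tested, 3 were called higher and 1 lower, beside 3.26% and 0.601% of all genes, and 3.86% in either direction. On the CPM scale levels did not overlap for 6 of the 8, beside 37.2% of all genes. Among the hypoxia reporters, 11 of the 11 tested were called higher, with a median log2 fold change of 1.26, led by ANKRD37 at 3.23, HILPDA at 2.48 and NDRG1 at 1.72, and HIF1A fell by 0.38 on the log2 scale. Their part in the changes was not tested. Of the genes called, 84.4% were higher on counts and 73.4% on the log2(FPKM + 0.1) scale.

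The responses of both partners of the MRC5 and H196 pairing were compared by an interaction term over all 15 libraries, for the 8 members that could be fitted. The change was larger in the fibroblasts for ANGPTL4, by 2.91 ± 0.14 on the log2 scale (adjusted p = 1.66e-15), for VEGFA, by 2.69 ± 0.091 (adjusted p = 1.51e-18), and for PGF, by 2.43 ± 0.25 (adjusted p = 7.48e-09). VEGFC differed by 1.08 ± 0.11 (adjusted p = 5.38e-09) and ANGPT1, lower in H196_Co and little changed in MRC5, by 0.74 ± 0.12 (adjusted p = 1.10e-05). These 5 were called, beside 12.1% of all 13585 genes in this direction, and 0 were called in the other, beside 12.6%, or 24.7% in either. VEGFB (0.48 ± 0.11), ADM (0.39 ± 0.11) and NRP1 (-0.51 ± 0.16) passed the test below the limit, so that all 8 passed, beside 51.2% of all genes. Among the 3 genes called higher in both lines, ADM had the smallest of these differences, its rise being 4.75-fold in the fibroblasts and 3.55-fold in the tumor cells. On the log2(FPKM + 1) scale ANGPT1 differed by 0.52, under the limit, NRP1 differed by -0.73 and was called, and 34.5% of the called genes were higher instead of 49.0%.

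**Figure D4:**
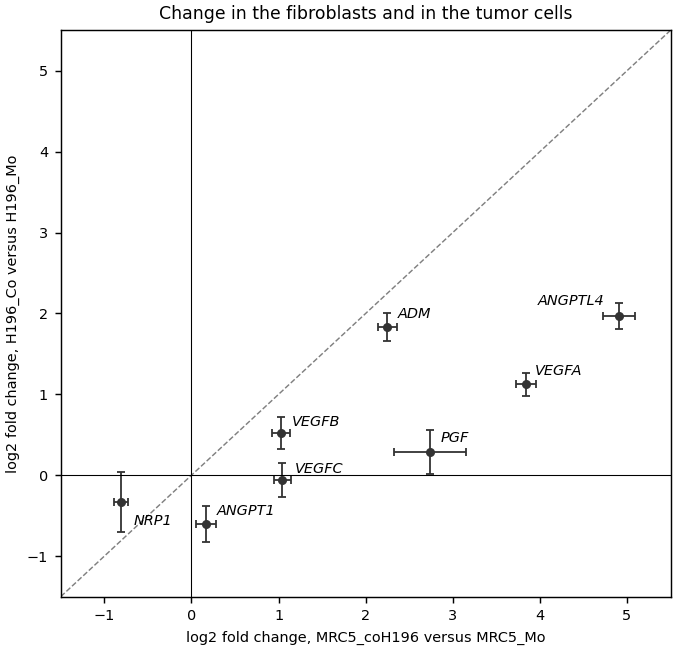
Log2 fold change of the 8 genes tested in both lines, in MRC5_coH196 against MRC5_Mo (horizontal) and in H196_Co against H196_Mo (vertical), with error bars of 95% intervals (1.96 standard errors) and a dashed line of equal change. ADM lies nearest to the line among the genes that rose in both, and VEGFA and ANGPTL4 lie far below it.

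The genes closest in pattern to each member were sought among 7154 genes by the root mean square difference (RMS) of log2(FPKM + 1) over the 15 libraries, each relative to the mono-culture of its line. This is a description with no test, and adding 1 before log2 shrinks changes of genes at low levels. PGF changed by 1.415 in MRC5_coH196 on this scale and by 2.74 on counts. NRP1 changed by -0.090 in H196_Co on this scale and by -0.33 on counts. The genes closest to PGF and NRP1 are those closest to these smaller values. Closest to VEGFA were ENO2, a glycolytic enolase, SLC2A3, a glucose transporter, and MXI1, a MYC antagonist, with RMS values of 0.26, 0.31 and 0.33. Closest to ANGPTL4 were HILPDA, a lipid droplet protein (0.31), ENO2 (0.47) and SLC2A3 (0.57), and closest to ADM were HK2, a hexokinase (0.11), DDIT4, an inhibitor of mTORC1 (0.20), and PFKFB4, a regulator of glycolysis (0.21). HK2 was higher by 2.07 in MRC5_coH196 and by 1.78 in H196_Co, where ADM was higher by 2.06 and 1.70 on the same scale. VEGFB was closest to ALKBH5, ENO1 and PFKP, with RMS values of 0.077 to 0.086. VEGFC was closest to SCAMP1, ARHGEF28 and LMAN1 (0.077 to 0.081), PGF to RUNX1, ETS1 and CDCP1 (0.087 to 0.12), ANGPT1 to MBNL1, ATP2B1 and ETNK1 (0.066 to 0.081), and NRP1 to MCM6, a replication helicase subunit, NVL and EXOSC2 (0.066 to 0.075).

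Most other receptors of these ligands were low in the fibroblasts. KDR and FLT4, the main VEGF receptors of blood and lymphatic endothelium, had at most 8 and 9 counts in any MRC5 library, or 0.08 and 0.10 FPKM, and were left out by the filter on low counts. CALCRL, the ADM receptor subunit, was at 0.08 to 0.21 FPKM. Among 5 tested receptors and partners, TEK, the ANGPT1 receptor, and TIE1 were called higher in MRC5_coH196, TEK from 6.52 ± 0.327 to 9.71 ± 0.0656 FPKM (log2 fold change 0.74) and TIE1 from 0.43 ± 0.149 to 0.717 ± 0.0416 FPKM (0.90), and 0 were called in MRC5_coH69. Over all genes 17.2% were called higher in MRC5_coH196, and 0.554% were called in either direction in MRC5_coH69. NRP2, the related co-receptor with a role in lymphatic vessels, fell by 0.39 in MRC5_coH196 and rose by 0.36 in MRC5_coH69 against MRC5_Mo on the log2 scale, both under the limit, and was called lower in MRC5_coH196 than in MRC5_coH69, at -0.75. In H196 cells FLT4 was at 2.59 to 3.25 FPKM and KDR at 0.03 to 0.17 FPKM. None of the 3 tested genes of this list passed the test in H196_Co, where 1542 of all 12806 genes passed as higher and 996 as lower.

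Of 10 tested semaphorins and plexins, which share neuropilins with VEGF, 2 were called lower in MRC5_coH196, beside 14.7% of all genes, and 0 higher, beside 17.2%. The 2 were SEMA3D at a log2FC of -2.05 and SEMA3E at -1.01, both at a mean of under 1 FPKM. In H196_Co 3 of 9 were called higher, SEMA3F, SEMA3B and PLXNA3, at 1.52, 0.84 and 0.63, and 0 lower. Over all genes 3.26% were called higher and 0.601% lower in H196_Co. In the remaining ligand families ADM2, a relative of ADM, was the only gene tested in MRC5 and was called higher in MRC5_coH196, at 0.93. In H196_Co ANGPTL6 and ADM2 were called higher, at 1.04 and 0.63, 2 of 4 tested, beside the same 3.26% of all genes.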

How the data were processed

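Polyadenylated RNA of 15 libraries was sequenced on a BGISEQ-500 instrument. The authors cleaned the reads with SOAPnuke and aligned them with HISAT and Bowtie2, and the submitters' processing notes name HISAT2 2.1.0, Bowtie2 2.3.4.3, RSEM 1.3.1 and GRCh38.p13. The deposited expected counts, which the authors did not normalize, estimate how many reads came from each gene, and 93.7% (MRC5) and 92.1% (H196) were whole numbers. The deposited FPKM values were normalized by the authors per library to gene length and depth. The deposited tables also hold the authors' own fold changes, p-values and q-values, which were not used, and 30 other columns of values per sample were not used.

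Expected counts were rounded and fitted in R 4.3.3 with edgeR 4.0.16 (TMM factors, filterByExpr, quasi-likelihood F tests, two-sided), the 9 MRC5 libraries together, the 6 H196 libraries together, and all 15 jointly over genes listed in both tables for comparisons between the lines. Genes tested numbered 12819, 12806 and 13585. P-values were adjusted over all genes of each fit, and standard errors (SE) were derived from each log2 fold change and the root of its F statistic. The 95% intervals of 1.96 SE assume a normal spread and can be narrower than the test implies. For PGF in H196_Co the interval ran from 0.012 to 0.55, while the unadjusted p by edgeR was 0.054. "Passed the test" means an adjusted p under 0.05, and a call also needs an absolute log2 fold change above 0.58. Comparisons with MRC5_Mo share its libraries. ANGPTL2 was left out of the joint fit, having at most 1 count in any H196 library. On simulated counts with 200 changed genes, the fits recovered 197 of them with 3 false calls for MRC5_coH196 versus MRC5_Mo (12819 genes), 197 with 4 false calls for H196_Co versus H196_Mo (12806 genes) and 186 with 11 false calls for the interaction (13585 genes). All planted changes had the same size, above the limit of 0.58, and all genes had the same simulated spread. Recovery of changes near the limit, or at the spread between these libraries, was not tested. Library totals of 16073597 to 19170560 counts set the precision, and limits from counts cover counting error only. Replicates differed by more than sampling noise (chi-square per gene of 1.89 to 11.1), so none was counted as a repeat deposit.

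The genes named are the 10 members, up to 3 called genes with the largest change of each other list, markers that define a cell type, and the 3 genes closest in pattern to each member tested in both tables, among genes with a mean of at least 5 FPKM in each table. HIF1A, EPAS1, KDR, FLT4, CALCRL and NRP2 were added for their roles. The members, lists and tests were chosen with earlier results of these data known. Alternatives were DESeq2 1.42.0 (its size factors and its Wald test), other count filters, limma 3.58.1 on FPKM with a pseudocount of 1 or 0.1 before log2, a stricter or no fold change limit, the replicate number as a block, fewer groups in the fit, and each library left out in turn. Promoter windows came from RefSeq (GRCh38.p14) and exon overlaps from GENCODE v29.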

Additional observations from a re-analysis of the deposited data

Results flagged for a closer look

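The response to co-culture differed between the fibroblasts and the tumor cells for 8 genes by the test of the difference itself (edgeR's interaction term, adjusted over all genes), given as the log2 fold change in MRC5 with H196 minus that in H196 with MRC5. It was 2.91 for ANGPTL4, 2.69 for VEGFA, 2.43 for PGF, 1.08 for VEGFC, 0.74 for ANGPT1, 0.48 for VEGFB, 0.39 for ADM and -0.51 for NRP1. For NRP1 the adjusted p was 0.0148, and 0.0733 without H196_Mo replicate 3 and 0.0943 without H196_Co replicate 1.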

How the results depend on the processing

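Recomputed counts of called members stayed within 1.5 times the main count in 189 cases and not in 13. The count of members lower in MRC5_coH196 than in MRC5_Mo was 0 at a fold change limit of 1. Without a fold change limit, 1 member was higher and 1 lower in MRC5_coH69 than in MRC5_Mo, 1 was lower in MRC5_coH196 than in MRC5_coH69, and 1 had a smaller response in MRC5 than in H196. That last count, NRP1, was also 1 with limma on log2(FPKM + 1) and log2(FPKM + 0.1), and ranged from 0 to 1 over libraries left out (1 without H196_Mo replicate 2). The count lower in H196_Co, ANGPT1, was 0 with limma on log2(FPKM + 1) and at a limit of 1, and 0 to 1 over libraries left out. For ANGPT1 in MRC5_coH196 the sign turned to -0.0056 with limma on log2(FPKM + 1) and -0.0060 on log2(FPKM + 0.1), where the median of all genes shifted to -0.13 and -0.18. The cause was not tested. VEGFB in MRC5_Mo against H196_Mo no longer passed on either FPKM scale (0.085 and 0.090). Replicate numbers did not pair the libraries, since deviations of libraries with the same number correlated at -0.12 to 0.081 in MRC5 and -0.15 to 0.033 in H196. With the replicate number as a block, 8 members were higher and 1 lower in MRC5_coH196, 3 higher and 1 lower in H196_Co, and no call of a member changed. PGF in MRC5_Mo (11 to 17 counts) and NRP1 in H196 (34 to 56 counts) were limited by depth.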

Other observations

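Other secreted angiogenic factors were also measured. Of 17 tested growth factors outside the families above, 8 were called higher and 4 lower in MRC5_coH196 than in MRC5_Mo, beside 17.2% and 14.7% of all genes. The largest changes were those of APLN, the apelin precursor, from 0.35 ± 0.0265 to 3.13 ± 0.0757 FPKM (log2 fold change 3.32), CXCL8, a chemokine, from 1.07 ± 0.198 to 5.09 ± 0.287 FPKM (2.41), and PDGFD, from 1.88 ± 0.237 to 0.433 ± 0.0603 FPKM (-1.95). In MRC5_coH69 CXCL8 was called higher, at 0.69, and CXCL12, a chemokine of stromal cells, lower, at -0.61, beside 0.421% and 0.133% of all genes. In H196_Co 4 of 12 were called higher and 0 lower, beside 3.26% and 0.601% of all genes, led by APLN at 1.83, PDGFA at 1.40 and CCN1 at 0.86. CCN1, a matricellular protein, was the most abundant of these at 257 ± 16.5 FPKM.

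In a list of 10 tested genes that holds inhibitors of angiogenesis and also VASH2, which is known to promote it, THBS2, a thrombospondin, was called higher in MRC5_coH196, from 6.51 ± 0.0300 to 15.4 ± 1.3 FPKM (1.44), and VASH2 lower, from 0.503 ± 0.0971 to 0.277 ± 0.0208 FPKM (-0.72). Each was 1 of 10, beside 17.2% of all genes called higher and 14.7% called lower. In MRC5_coH69 0 of 10 were called by edgeR and 3 passed the test below the limit, beside 0.554% called and 6.7% passing of all genes. In H196_Co 0 of 7 were called, beside 3.86% of all genes, and 2 passed the test below the limit. Of all 12806 genes tested in H196, 1542 passed as higher and 996 as lower.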
